A study of Mus musculus with 8 samples.

Results

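The B cell antigen receptor is a membrane immunoglobulin held at the cell surface by a pair of signalling chains, and it works beside coreceptors that lower or raise its threshold. This report describes 9 genes of that apparatus in mouse inguinal white adipose tissue (iWAT): the signalling chains Cd79a and Cd79b, the coreceptors Cr2 and Cd22, the membrane protein gene Ms4a1, the Fc receptor genes Fcer2a, Fcrla and Fcmr, and the kinase gene Blk. They were taken by name from the 54532 genes of the deposited table, which held all 9, and 9 of 9 passed the filter on low values that left 16012 genes to test. The tissue came from male mice on a high-fat diet (HFD). In one group the transcription factor KLF10 was deleted in adipocytes (KLF10AKO, 4 libraries), and the other was wild type (WT, 4 libraries). The sources used here name neither the promoter behind the deletion nor the age of the mice nor the animal behind a library, and each p-value therefore rests on variation among libraries that may be technical.

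Antigen binding brings Src family kinases to the tails of CD79A and CD79B, which then recruit the kinase SYK and a chain of adaptors and lipid enzymes. CD21 and CD81 belong to the activating coreceptor complex, which couples complement-tagged antigen to the receptor. CD22 is an inhibitory coreceptor that binds sialic acid and recruits the phosphatase encoded by Ptpn6. Fc receptors bind antibody. Such genes are used as B lymphocyte markers, and adipocytes are not known for them. B cells gather in lymph nodes, and the inguinal fat pad of the mouse encloses a node.

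All 9 genes were near the limit of detection in WT iWAT and were well expressed in KLF10AKO iWAT. Their levels per length ranged between 18.7 and 571 FPKM (fragments scaled to gene length and to library sizes that the authors had adjusted) in the KLF10AKO libraries, and between 0.0411 and 1.30 FPKM in the WT libraries. All 9 rose, where 74.3% of the 16012 genes tested passed, 39.4% higher in KLF10AKO and 34.9% lower (limma, Benjamini-Hochberg adjusted p under 0.05). All 9 also passed with a rise of at least 4-fold, which 7.59% of the genes tested did. In 9 of 9 genes every KLF10AKO value lay above every WT value, which held for 36.2% of all genes tested. The median log2 change of the 9 was 6.72, and that of all genes tested was 0.05. In bulk tissue, more B cells and more receptor mRNA per cell cannot be told apart.

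Start regions are shown to describe these genes at the sequence level, and their part in the difference between the groups was not tested. RefSeq windows (GRCm38.p6, the mm10 assembly), 250 bases before to 50 bases after a start site, were found for 6 of the 9 genes. Shown are the 3 windows with a match to the PU.1 word GAGGAA, from Cd79a (chr7:24897247-24897546, plus strand), Fcmr (chr1:130865527-130865826, plus strand) and Fcrla (chr1:170927534-170927833, minus strand), and that of Cr2 (chr1:195176670-195176969, minus strand), the gene of lowest level, which has none. Each reads 5′ to 3′ on the strand of its gene, and capitals mark GAGGAA on either strand and the E box CANNTG.

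Cd79a: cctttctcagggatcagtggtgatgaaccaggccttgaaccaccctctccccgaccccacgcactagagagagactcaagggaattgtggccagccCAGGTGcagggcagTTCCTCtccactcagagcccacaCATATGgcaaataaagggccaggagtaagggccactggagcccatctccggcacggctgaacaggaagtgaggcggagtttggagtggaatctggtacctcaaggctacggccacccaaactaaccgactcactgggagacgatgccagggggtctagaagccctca
Fcmr: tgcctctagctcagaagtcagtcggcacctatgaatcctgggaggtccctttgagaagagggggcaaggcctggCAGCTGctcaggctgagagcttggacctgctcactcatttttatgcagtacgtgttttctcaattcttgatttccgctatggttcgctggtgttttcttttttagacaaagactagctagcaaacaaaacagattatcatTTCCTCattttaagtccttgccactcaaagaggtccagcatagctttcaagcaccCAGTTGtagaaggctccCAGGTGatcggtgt
Fcrla: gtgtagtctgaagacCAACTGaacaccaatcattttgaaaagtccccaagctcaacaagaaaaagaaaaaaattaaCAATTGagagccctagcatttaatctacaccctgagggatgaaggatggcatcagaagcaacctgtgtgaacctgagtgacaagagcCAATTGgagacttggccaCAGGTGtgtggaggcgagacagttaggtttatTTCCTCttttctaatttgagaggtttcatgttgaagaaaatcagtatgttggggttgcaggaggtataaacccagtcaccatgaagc
Cr2: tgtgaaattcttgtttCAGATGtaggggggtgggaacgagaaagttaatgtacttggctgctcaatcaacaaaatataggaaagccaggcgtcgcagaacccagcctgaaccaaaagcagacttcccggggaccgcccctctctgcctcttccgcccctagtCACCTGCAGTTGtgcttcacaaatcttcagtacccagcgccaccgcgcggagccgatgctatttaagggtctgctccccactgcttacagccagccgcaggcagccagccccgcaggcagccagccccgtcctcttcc

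Counted in bases from the start site, the PU.1 word stood at -140 in Cd79a, -36 in Fcmr and -37 in Fcrla. It was found in 3 of the 6 windows and in 28.3% of 32851 windows genome-wide. The E box was found in 6 of 6 and in 72.3% of all windows, so a match there is common. Of the other words searched on both strands, the octamer ATGCAAAT was in 0 of 6 windows (1.74% of all), the EBF1 core CCCNNGGG in 1 (13.7%), the PAX5 core GCGTGAC in 0 (2.09%), the NF-kB motif in 4 (50.8%), the ETS core TTCCGG in 0 (14.9%), GGGAC in 4 (51.0%) and the RUNX word TGTGGT in 1 (16.8%). Matches of different words may overlap. The RefSeq start sites of the Cd22, Cd79a and Fcmr windows lie 1314, 116 and 108 bases inside the deposited genes. The EBF1 match of Cd22 lay at -48. These matches describe letters and do not show binding.

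The libraries held 15537863 to 17499132 reads each, recovered from the deposited values. Klf10, the targeted gene, fell to 9.60 ± 0.157 FPKM in KLF10AKO, against 18.2 ± 2.09 in WT (SD, n = 4 each), a log2 change of -0.88 (limma adjusted p = 8.96e-06) that turned to 0.71 when libraries were scaled to adipocyte markers. Adipocyte markers were present in every library, with a summed level of 4906 to 6175 FPKM over 10 genes in KLF10AKO and 14370 to 16390 FPKM in WT. All 10 fell, where 34.9% of all genes tested did. Skeletal muscle markers summed to 4983, 3769, 8772 and 63.4 FPKM in KLF10AKO replicates 1 to 4 and to 171 to 227 FPKM in WT, so KLF10AKO replicate 4 stood apart from the others of its group. Most of the WT sum was Acta1, at 160 to 213 FPKM in WT and 20.9 FPKM in KLF10AKO replicate 4. In that library Tnnt3, at 3.11 FPKM, lay above WT (0.295 to 0.634 FPKM) and Myh4, at 0.00942 FPKM, lay below WT (0.0779 to 0.133 FPKM). These Myh4 values are near the limit of detection. The share of passing genes that were higher in KLF10AKO was 53.0% on the authors' scale, 63.4% on TPM, 41.2% after quantile normalization and 98.6% when adipocyte markers set the scale, and the last 3 moved the median change of all genes by 0.20, -0.20 and 1.41 on the log2 scale. The 9 receptor genes rose under all 4.

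Cd79a and Cd79b encode the chains that carry the receptor's signal into the cell and without which immunoglobulin does not reach the surface. Cd79a (ENSMUSG00000003379, mm10 chromosome 7, 24897381 to 24902197, plus strand) had levels of 451, 473, 378 and 571 FPKM in KLF10AKO replicates 1 to 4 and of 0.597, 0.991, 0.823 and 0.841 FPKM in WT replicates 1 to 4. The groups lay far apart, with the lowest KLF10AKO library 382 times the highest WT library. Its log2 change was 8.47 (standard error 0.134, 95% interval 8.17 to 8.78, limma adjusted p = 1.74e-09), which ranked 1 among the protein-coding genes that rose. Cd79b (ENSMUSG00000040592, chromosome 11, 106311341 to 106314762, minus strand) stood at 314, 350, 260 and 387 FPKM in KLF10AKO and at 0.889, 0.756, 1.30 and 1.09 FPKM in WT. Again no WT value came near a KLF10AKO value, and the log2 change was 7.76 (standard error 0.146, limma adjusted p = 2.05e-09). A permutation test over the 8 values, exact and two-sided, gave p = 0.0286 for each of the 9 genes, and no smaller p is possible with 4 libraries a group.

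The products of Cd79a and Cd79b form a heterodimer. Their ratio of FPKM was 1.44, 1.35, 1.46 and 1.47 in KLF10AKO replicates 1 to 4 and 0.672, 1.31, 0.631 and 0.769 in WT replicates 1 to 4. The KLF10AKO ratios were close to each other and all above the WT ratios. The WT ratios rest on few reads, 13 to 24 for Cd79a and 18 to 28 for Cd79b in a library, against 6739 or more in each KLF10AKO library for either gene. Both gene models have the length of their longest coding transcript (1457 and 1431 bases). Cd79b also has a coding transcript of 1195 bases, and which of its transcripts the reads came from was not tested.

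**Figure D1:**
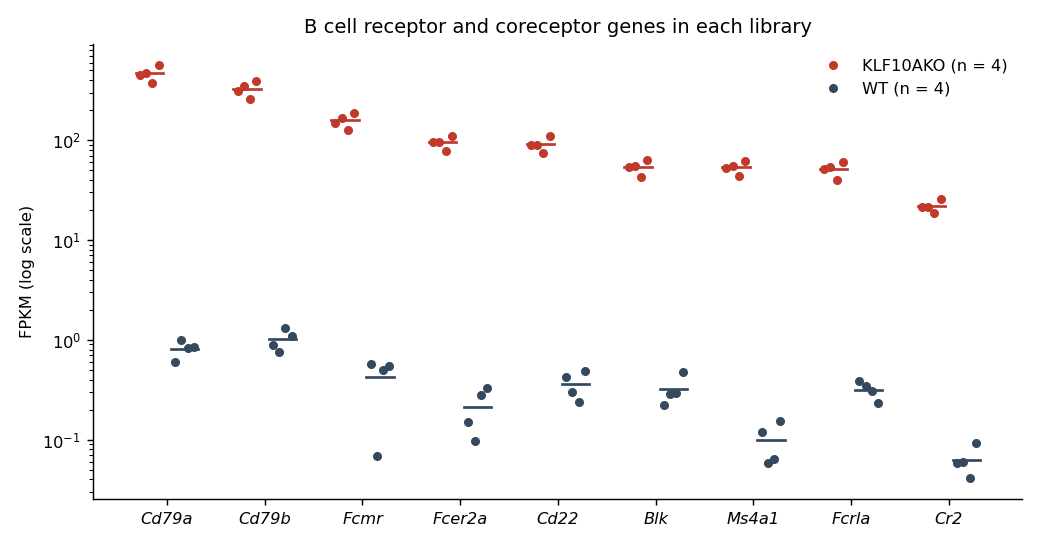
FPKM of the 9 genes on a log axis in each library, KLF10AKO left and WT right, genes ordered by their KLF10AKO mean; points are libraries and bars are group means (n = 4 each). No WT point reaches a KLF10AKO point in any gene, and the WT point of Fcmr at 0.0693 FPKM lies far below the other 3.

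Among the coreceptors, Cr2 had the lowest level of the 9 genes. In the mouse it encodes the complement receptors CD21 and CD35 by alternative splicing. These bind fragments of complement C3 and occur on B cells and on follicular dendritic cells. Cr2 (ENSMUSG00000026616, chromosome 1, 195136811 to 195176716, minus strand) stood at 21.3, 21.4, 18.7 and 25.8 FPKM in KLF10AKO and at 0.0578, 0.0593, 0.0411 and 0.0923 FPKM in WT, values that in WT stand for 5 to 11 reads a library. The groups did not overlap, and the relative spread was wider in WT, with a coefficient of variation of 13.4% in KLF10AKO and 34.3% in WT. Its log2 change was 5.30 (standard error 0.0974, limma adjusted p = 2.05e-09).

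Cd22 (ENSMUSG00000030577, chromosome 7, 30865402 to 30880342, minus strand), the inhibitory coreceptor, stood at 89.9, 89.6, 74.9 and 109 FPKM in KLF10AKO and at 0.425, 0.298, 0.238 and 0.486 FPKM in WT. The difference again exceeded the spread many times over, at a log2 change of 6.72 (standard error 0.129, limma adjusted p = 2.21e-09). Its exons overlap 479 bases of the antisense gene Gm29439, which had 0 reads in all 8 libraries, and the strand setting of the counting is not given in the sources used here. Ms4a1 (ENSMUSG00000024673, chromosome 19, 11249675 to 11266241, minus strand) encodes CD20, a membrane protein of mature B cells. It stood at 52.4, 54.9, 44.2 and 62.0 FPKM in KLF10AKO and at 0.119, 0.0583, 0.0646 and 0.154 FPKM in WT, the second lowest WT mean of the 9. Its log2 change was 6.48 (standard error 0.106, limma adjusted p = 1.74e-09).

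The Fc receptor genes rose as well. Fcmr (ENSMUSG00000042474, chromosome 1, 130865669 to 130880791, plus strand) encodes the receptor for immunoglobulin M. Its levels were 148, 169, 127 and 189 FPKM in KLF10AKO and at 0.578, 0.0693, 0.499 and 0.549 FPKM in WT. WT replicate 2 was low, with 2 reads where the other WT libraries had 13 to 15, and Fcmr had the widest relative spread in WT, a coefficient of variation of 56.3%. The log2 change was 7.45 (standard error 0.213, limma adjusted p = 1.15e-08), and 7.23 to 7.55 with any one library left out. Fcer2a (ENSMUSG00000005540, chromosome 8, 3681737 to 3694175, minus strand) encodes CD23, the low-affinity receptor for immunoglobulin E on follicular B cells. It stood at 95.1, 96.9, 78.7 and 111 FPKM in KLF10AKO and at 0.152, 0.0972, 0.280 and 0.330 FPKM in WT, with no overlap. Its log2 change was 7.07 (standard error 0.132, limma adjusted p = 2.05e-09).

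Fcrla (ENSMUSG00000038421, chromosome 1, 170917576 to 170927583, minus strand) encodes an Fc receptor-like protein that, in human B cells, stays inside the cell. It stood at 51.4, 54.4, 39.7 and 60.9 FPKM in KLF10AKO and at 0.384, 0.345, 0.305 and 0.234 FPKM in WT. The groups did not overlap, the lowest KLF10AKO value being 103 times the highest WT value. Its log2 change was 5.98 (standard error 0.127, limma adjusted p = 3.44e-09). Blk (ENSMUSG00000014453, chromosome 14, 63372836 to 63417037, minus strand), the Src family kinase of B lymphocytes, stood at 54.3, 54.6, 42.5 and 64.0 FPKM in KLF10AKO and at 0.223, 0.290, 0.296 and 0.480 FPKM in WT. Its separation was the smallest of the 9 on this measure, the lowest KLF10AKO value being 88.7 times the highest WT value. Its log2 change was 6.04 (standard error 0.135, limma adjusted p = 4.34e-09).

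By level per length in KLF10AKO the order was Cd79a (468 ± 79.7 FPKM), Cd79b (328 ± 54.4), Fcmr (158 ± 26.6), Fcer2a (95.3 ± 13.1), Cd22 (90.8 ± 13.9), Blk (53.8 ± 8.79), Ms4a1 (53.4 ± 7.34), Fcrla (51.6 ± 8.88) and Cr2 (21.8 ± 2.93; SD, n = 4 each). In that order 4 steps were wider than the spread, between Cd79b and Fcmr, Fcmr and Fcer2a, Cd22 and Blk, and Fcrla and Cr2. The ranges of Fcer2a and Cd22 overlapped, with a ratio of 1.02 to 1.08 within a library, and so did those of Blk, Ms4a1 and Fcrla. Blk was above Ms4a1 in 2 of 4 libraries. The ranges of Cd79a and Cd79b overlapped as well, although Cd79a was above Cd79b in 4 of 4 libraries. The order also depends on the length used: the deposited length of Ms4a1, 6187 bases, is 2.01 times its longest coding transcript, and on that transcript its mean would be 107 FPKM, above the 62.5 FPKM of Blk on the same footing.

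The 9 genes varied together among the KLF10AKO libraries. Set against each gene's own KLF10AKO mean, they lay between 0.934 and 1.01 in replicate 1, 0.980 and 1.07 in replicate 2, 0.769 and 0.859 in replicate 3 and 1.16 and 1.22 in replicate 4. In 8 of 9 genes replicate 4 was highest, followed by 2, 1 and 3, and Cd22 differed by having replicate 1 above 2. Summed over the 9 genes the level was 1277, 1364, 1064 and 1580 FPKM in KLF10AKO replicates 1 to 4, against 3.42, 2.96, 3.85 and 4.26 FPKM in WT replicates 1 to 4. In reads this was 43044 to 61366 a library in KLF10AKO and 111 to 156 in WT.

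The makeup of that sum was nearly constant within KLF10AKO and more variable in WT. Cd79a made up 35.4% ± 0.618 of the summed FPKM in KLF10AKO and 23.0% ± 7.14 in WT (SD, n = 4 each), and the ranges of the groups did not overlap. Ms4a1 also took a larger share in KLF10AKO without overlap, 4.05% ± 0.0998 against 2.69% ± 1.00 in WT. Fcrla and Blk took smaller shares without overlap, 3.90% ± 0.134 and 4.08% ± 0.124 in KLF10AKO against 9.05% ± 2.89 and 8.82% ± 2.13 in WT. The shares of the other 5 genes overlapped between the groups. The WT shares carry the counting error of single genes with 2 to 36 reads a library, and these shares were not tested.

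**Figure D2:**
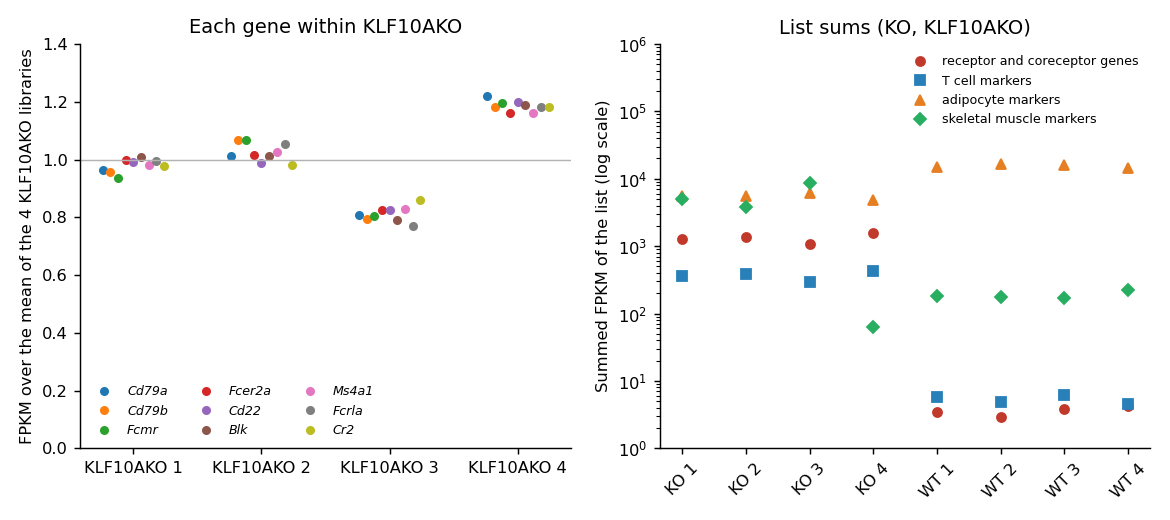
Left, FPKM of each of the 9 genes in the 4 KLF10AKO libraries over its own KLF10AKO mean (linear axis from 0); right, summed FPKM of the 9 genes and of T cell, adipocyte and skeletal muscle marker lists in all 8 libraries (log axis; KO stands for KLF10AKO). The 9 genes shift together, between 0.769 and 0.859 of their mean in replicate 3 and 1.16 and 1.22 in replicate 4, and the muscle sum falls to 63.4 FPKM in that library.

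Marker lists of other cell types moved in the same libraries. Their counts stand beside 39.4% of all genes tested higher in KLF10AKO and 34.9% lower. All 10 T cell markers rose, and their summed level was 363, 383, 292 and 431 FPKM in KLF10AKO replicates 1 to 4, the order of the receptor genes, against 4.62 to 6.13 FPKM in WT. The adipocyte sum had the reverse order, 5578, 5537, 6175 and 4906 FPKM in KLF10AKO, and so had the muscle sum. Of 7 tested genes of lymph node stroma and venules 6 rose. Among them were Glycam1, a mucin of high endothelial venules, at 28.3, 32.8, 24.5 and 35.3 FPKM in KLF10AKO and 0.219 to 0.798 FPKM in WT, and the cytokine gene Tnfsf11 at a log2 change of 2.81 (limma adjusted p = 3.54e-08). Summed over the lymph node list the level was 68.9, 79.6, 116 and 293 FPKM in KLF10AKO replicates 1 to 4, against 3.55 to 3.77 FPKM in WT. Glycam1 thus had the replicate order of the receptor genes, and the list sum did not. The order of the sum was that of the gene with the highest KLF10AKO mean of the list. That gene stood at 29.8, 34.5, 80.2 and 244 FPKM in KLF10AKO replicates 1 to 4. The part of lymph node tissue or of the other cell types in the rise of the receptor genes was not tested. KLF10AKO replicate 4, where the muscle sum was lowest in its group, was also set alone against WT. The 9 changes then ran from 5.55 for Cr2 to 8.77 for Cd79a. That fit assumes that a lone library varies like the WT libraries.

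**Figure D3:**
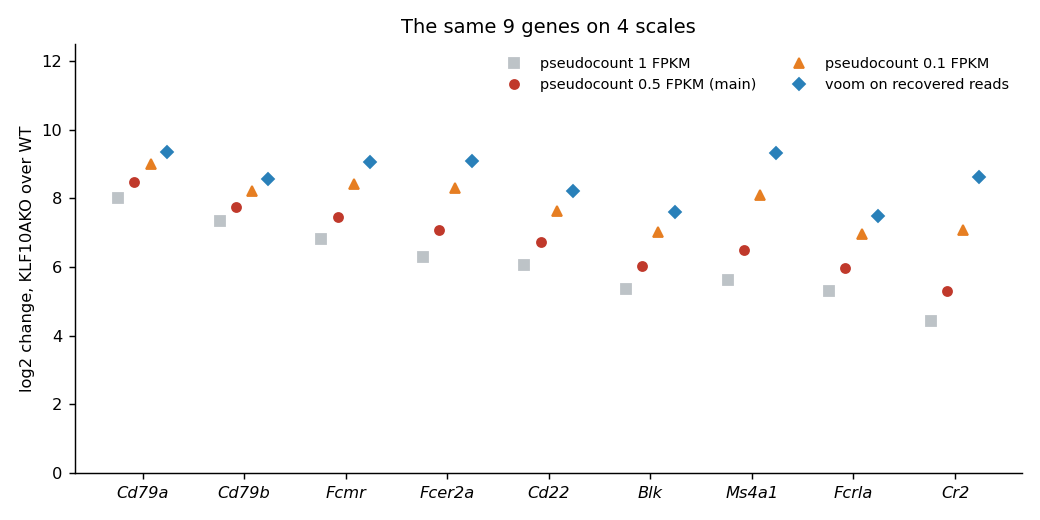
Log2 change of KLF10AKO over WT for the 9 genes under 3 pseudocounts and with voom on recovered reads. Every point is above 0, and Cr2 moves from 4.42 with a pseudocount of 1 FPKM to 8.63 with voom, more than any other of the 9.

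The size of the change depended on the scale for the genes that were lowest in WT. The pseudocount of 0.5 FPKM exceeds the WT mean of 7 of the 9 genes, so the fitted change understates them. On the ratio of mean FPKM without a pseudocount, Cd79a was 576-fold higher in KLF10AKO, Ms4a1 539-fold, Fcer2a 444-fold, Fcmr 373-fold, Cr2 348-fold, Cd79b 324-fold, Cd22 251-fold, Blk 167-fold and Fcrla 163-fold. Cr2 was 9 of 9 by the fitted change and 5 of 9 by this ratio, and Ms4a1 was 6 and 2. The voom fit to recovered reads gave the same order as the ratio, with Cd79a at 9.36, Ms4a1 at 9.33, Cr2 at 8.63 and Fcrla at 7.49 on the log2 scale. The WT side of these ratios rests on 31 to 111 reads summed over 4 libraries.

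The rest of the receptor pathway rose in smaller steps. Of 5 further coreceptor genes 4 rose and 1 fell (median log2 change 2.90), where 39.4% of all genes tested rose and 34.9% fell. Cd81, a tetraspanin of the activating coreceptor made by many cell types, fell to 65.5 ± 7.62 FPKM in KLF10AKO, against 125 ± 6.25 in WT (SD, n = 4 each), a log2 change of -0.93 (limma adjusted p = 1.67e-05) that turned to 0.71 with scaling to adipocyte markers. Cr2, of the same complex, changed by 5.30, so Cd81 and Cr2 differed in direction. Cd180 and Ly86, which encode a Toll-like receptor homologue of B cells and its partner, changed by 2.90 and 3.12, and the ectoenzyme gene Cd38 by 1.58.

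Of 17 kinases, adaptors and effectors 17 rose, where 39.4% of all genes tested did, with changes from 0.87 to 4.89 (median 2.90). Among those of lowest p were Bank1, a B cell scaffold protein, at 4.89, Pik3cd, a catalytic subunit of phosphoinositide 3-kinase in leukocytes, at 3.92, and Syk at 2.57. Bank1 stood at 21.2 ± 2.97 FPKM in KLF10AKO and 0.228 ± 0.0736 in WT, whereas Syk stood at 31.2 ± 3.70 in KLF10AKO and already at 4.81 ± 0.151 in WT (SD, n = 4 each). Bcl10, a signalling adaptor on the way to NF-kB that is made in many tissues, had the smallest change, 0.87 (limma adjusted p = 3.68e-06). It was named after its values were seen.

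Of 10 inhibitory receptors and phosphatases 10 rose, where 39.4% of all genes tested did, with changes from 1.02 to 6.19 (median 2.19). Siglecg, a sialic acid receptor of B cells related to CD22, changed by 6.19 (limma adjusted p = 2.05e-09), with 47.3 ± 6.51 FPKM in KLF10AKO and 0.151 ± 0.0702 in WT (SD, n = 4 each). The adaptor gene Dok3 changed by 4.89, the inhibitory receptor gene Cd72 by 4.62, and Ptpn6, whose phosphatase CD22 recruits, by 4.63, with 101 ± 17.3 FPKM in KLF10AKO and 3.55 ± 0.182 in WT. Pirb, an inhibitory receptor of myeloid cells as well, changed least, by 1.02, and was named after its values were seen. Genes of both signs of the pathway were thus higher in KLF10AKO.

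**Figure D4:**
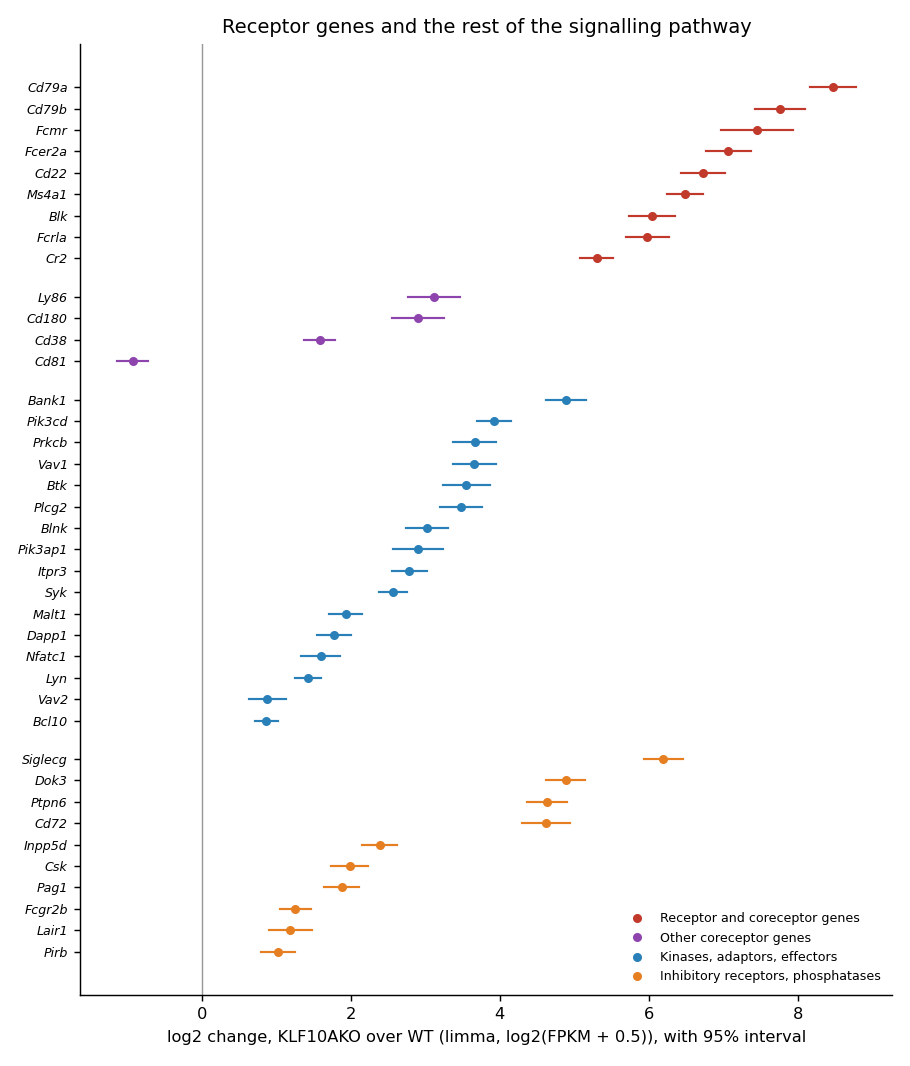
Log2 change of KLF10AKO over WT with its 95% interval (limma, log2(FPKM + 0.5), n = 4 each) for the 9 genes and 30 others of the pathway, grouped by role. The 9 lie between 5.30 and 8.47, Siglecg at 6.19 lies among them, and of the genes plotted Cd81 alone is below 0, at -0.93, a sign that turns with scaling to adipocyte markers.

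The gene families of the 9 split by where they are known to be expressed. Each family count includes those of the 9 genes that belong to it. Of all genes tested 39.4% were higher in KLF10AKO and 34.9% lower. Among 8 Src family kinases 7 rose and 1 fell. Of the 7 described here Blk was the lowest in WT, 0.322 ± 0.110 FPKM, and among the highest in KLF10AKO, 53.8 ± 8.79 FPKM, beside the T cell kinase gene Lck at 60.2 ± 9.35 in KLF10AKO and 0.734 ± 0.173 in WT (SD, n = 4 each). Lck changed by 5.62. Lyn, the main Src kinase of the receptor and also of myeloid cells, and the widely expressed Fyn changed by 1.43 and 1.55, with 36.6 ± 3.86 and 27.4 ± 3.78 FPKM in KLF10AKO and 13.2 ± 0.462 and 8.98 ± 0.663 FPKM in WT. The myeloid kinase gene Fgr changed by 2.94. Src changed by 0.32 (limma adjusted p = 0.0150), and by 0.08 without passing after quantile normalization (limma adjusted p = 0.471), and Yes1 by -0.93 (limma adjusted p = 2.70e-05), which turned to 0.53 with scaling to adipocyte markers.

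**Figure D5:**
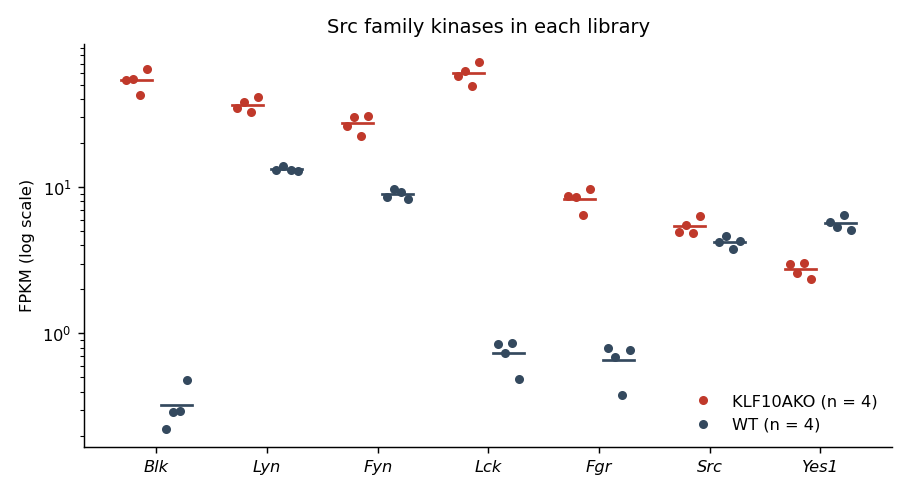
FPKM of 7 Src family kinase genes on a log axis in each library, KLF10AKO left and WT right; points are libraries and bars are group means (n = 4 each). Blk and Lck are far apart between the groups, Lyn and Fyn are already at 8.27 to 13.9 FPKM in WT, and Yes1 is lower in KLF10AKO, a direction that turns with scaling to adipocyte markers.

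Of 12 tested Fc receptor genes 8 rose, 2 fell and 2 did not pass. Fcrl1, a B cell receptor of the Fc receptor-like family, changed by 5.97, with 39.1 ± 6.06 FPKM in KLF10AKO and 0.126 ± 0.0458 in WT (SD, n = 4 each). Fcgr3, an activating immunoglobulin G receptor of myeloid cells, and Fcgrt, the neonatal Fc receptor of many tissues, changed by -0.81 and -1.31, which turned to 0.80 and 0.34 with scaling to adipocyte markers. Of 10 tested Ms4a genes 6 rose, 2 fell and 2 did not pass. Ms4a4c and Ms4a4b, known from lymphocytes, changed by 5.97 and 4.83 and Ms4a6c by 3.25. Ms4a4a and Ms4a7, macrophage genes, changed by -0.33 and -0.36, which turned to 1.21 and 0.91 with scaling to adipocyte markers. Ms4a4a did not pass without WT replicate 1 (-0.26), WT replicate 2 (-0.31) or KLF10AKO replicate 2 (-0.26). Of 6 tested Siglec genes 5 rose, among them Siglech, a marker of plasmacytoid dendritic cells, at 3.23. Of 7 tested receptors and regulators of C3 fragments 3 rose, Cr2 among them, and 1 fell. Cd55, which protects cells from complement, changed by 1.54. Cr1l, the paralogue of Cr2, named after its values were seen, did not pass, with 7.61 ± 0.308 FPKM in KLF10AKO and 7.44 ± 0.539 in WT (SD, n = 4 each) and a 95% interval of the log2 change of -0.12 to 0.18. It passed as a rise with TPM (0.24), voom (0.26) and scaling to adipocyte markers (1.58).

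B cells at different stages use these genes differently, and stage markers were read beside them. The counts of these lists and of follicular dendritic cell genes stand beside 39.4% of all genes tested higher in KLF10AKO and 34.9% lower. All 8 genes of the follicular and naive B cell list rose (median 6.04), among them Ighd, the heavy chain of immunoglobulin D, at 7.92, and the lineage factor gene Pax5 at 6.26. Of 9 marginal zone and B-1 genes 5 rose, 3 fell and 1 did not pass. Mzb1, Cd5 and Dtx1 changed by 6.31, 5.19 and 4.68, while Cd9 and Cd1d1, both made outside B cells too, changed by -0.28 and -1.37, which turned to 1.34 and 0.28 with scaling to adipocyte markers. The third that fell was Cd36, a fatty acid transporter gene that adipocytes also express, which changed by -1.74, and by -0.09 without passing when scaled to adipocyte markers (limma adjusted p = 0.238). Cd5 is also made by T cells.

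Of 8 germinal centre genes 5 were tested, of which 2 rose and 3 fell. Gcsam changed by 1.63 and the proliferation gene Mki67 by 0.31. Fas, which many cells make, Bcl6 and S1pr2 changed by -0.89, -0.30 and -0.32, which turned to 0.72, 1.27 and 0.84 with scaling to adipocyte markers. S1pr2 did not pass without WT replicate 3 (-0.33), WT replicate 4 (-0.23), KLF10AKO replicate 1 (-0.29) or KLF10AKO replicate 4 (-0.30). Mki67 did not pass without WT replicate 2 (0.26), WT replicate 4 (0.27), KLF10AKO replicate 1 (0.30) or KLF10AKO replicate 4 (0.28). Of 7 tested plasma cell genes 5 rose and 2 fell (median 1.13). Tnfrsf13b, which mature B cells also make, changed by 4.39, and the others that rose changed by 0.53 to 2.14. Sdc1 and Xbp1 changed by -0.59 and -1.01, which turned to 0.91 and 0.62 with scaling to adipocyte markers. Of 8 precursor genes 6 were under the filter. Rag2 had 0 reads in all 8 libraries, whereas Vpreb3 and Il7r, which are also made later or by T cells, changed by 3.93 and 3.31.

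Follicular dendritic cells also carry CD21 and CD23, the products of Cr2 and Fcer2a. Of 5 tested genes of their list 2 rose and 3 fell: the follicle chemokine gene Cxcl13 stood at 84.3 ± 14.3 FPKM in KLF10AKO and 0.582 ± 0.0524 in WT (SD, n = 4 each), and Clu at 138 ± 21.8 in KLF10AKO and 4.60 ± 0.158 in WT. The genes that fell, all made by other cell types too, were Ltbr at 18.1 ± 2.38 FPKM in KLF10AKO and 38.5 ± 1.13 in WT, Enpp2 at 46.4 ± 1.59 in KLF10AKO and 83.9 ± 6.15 in WT, and Mfge8 at 136 ± 1.62 in KLF10AKO and 176 ± 5.74 in WT (SD, n = 4 each). Their log2 changes of -1.07, -0.84 and -0.36 turned to 0.55, 0.79 and 1.28 with scaling to adipocyte markers. Cr2 took 1.57% to 1.76% of the summed level of the 9 genes in KLF10AKO and 1.07% to 2.17% in WT. Which cells the Cr2 and Fcer2a reads came from was not tested.

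Of 12845 other protein-coding genes, those whose centred log2 profile over the 8 libraries lay nearest to the median profile of the 9 were Tnfrsf13c, the receptor for the B cell survival factor BAFF, at a mean absolute difference of 0.0656, Spib, an Ets family factor of lymphocytes, at 0.0951, and 3 genes of the class II antigen loading machinery, H2-Ob at 0.110, H2-DMb2 at 0.159 and H2-Oa at 0.168. Tnfrsf13c stood at 54.0 ± 8.53 FPKM in KLF10AKO and 0.0569 ± 0.0508 in WT (SD, n = 4 each). By Pearson correlation with that profile the first 5 included Pax5, Tnfrsf13c, B3gnt5 and Traf3ip3. The measure separates few genes, since 1056 of the 12845 reached a correlation of 0.99. Marker levels of other tissues differed between the groups, and those of muscle also within KLF10AKO. Their part in these profiles was not tested.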

How the data were processed

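Poly(A)-selected RNA of iWAT was sequenced in 4 KLF10AKO and 4 WT libraries. Tools named by the submitters' processing notes are edgeR 3.22.5, HISAT2 2.0.5 and featureCounts 1.5.0-p3, with build mm10. Their roles, the annotation and the strand setting are not given there. The authors deposited FPKM with gene lengths. Multiplied by length, 100% of the values were whole multiples of 1 step per library (tolerance 0.01 of a read), which recovers the read numbers. These came to 0.901 to 0.939 times the implied library size in KLF10AKO and 1.05 to 1.09 times in WT, so the authors' sizes had been scaled.

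KLF10AKO was set against WT in R 4.3.3 with limma 3.58.1 (lmFit, eBayes with trend) on log2(FPKM + 0.5) of genes with a mean of at least 0.5 FPKM, two-sided, with Benjamini-Hochberg adjustment over all 16012 genes and a threshold of 0.05. The procedure was tested on simulated data. The 9 genes and the lists were chosen with earlier results of these data known. The rule named up to 4 genes of lowest p in each list and those that passed in the other direction; pathway lists and Src family kinases follow it, with additions stated beside them, while the other families and the marker lists are named only in part. Some genes of these lists are counted but not reported here by name. Gene models are from GENCODE M21. The labels name no molecular identifiers, so read numbers give counting error only. Replicates differed beyond counting noise in all 12 pairs within a group (mean squared z 4.50 to 79.9). Alternatives were other pseudocounts and filters, TPM, quantile and adipocyte marker scaling, voom, robust eBayes, a replicate block, each library left out, and KLF10AKO replicate 4 alone.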

Additional observations from a re-analysis of the deposited data

Results flagged for a closer look

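A single library lay far from the other 3 of its group in 4 of 138 groups of values screened, where chance marks about 1 in 20. Fcmr stood at 0.0693 FPKM in WT replicate 2, against 0.499 to 0.578 in the other WT libraries. Dok3 stood at 2.54 FPKM in WT replicate 2, against 2.03 to 2.07 in the others. Dtx1 stood at 0.102 FPKM in WT replicate 1, against 0.0114 to 0.0253 in the others. Gcsam stood at 1.06 FPKM in KLF10AKO replicate 3, against 1.32 in the other KLF10AKO libraries.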

How the results depend on the processing

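The 9 genes kept their direction and passed under all 19 alternatives, with log2 changes between 4.42 (Cr2, pseudocount 1) and 9.75 (Cd79a, scaled to adipocyte markers). Scaling to adipocyte markers moved the genes called higher to 14029 and lower to 196, against 6305 and 5588, and left 0 of the 5 further coreceptor genes lower. Under it these changes reversed: Klf10 to 0.71, Cd81 to 0.71, Yes1 to 0.53, Fcgr3 to 0.80, Fcgrt to 0.34, Ms4a4a to 1.21, Ms4a7 to 0.91, Cd9 to 1.34, Cd1d1 to 0.28, Fas to 0.72, Xbp1 to 0.62, Sdc1 to 0.91, Enpp2 to 0.79, Ltbr to 0.55, Mfge8 to 1.28, Bcl6 to 1.27 and S1pr2 to 0.84. That scaling sets the mean marker level equal in all libraries by construction. Cr1l was near 0 in the main fit and reversed to -0.15 with quantile normalization. With 1 library left out it ranged from -0.0099 (without WT replicate 2) to 0.066. It passed as a rise with TPM (0.24, limma adjusted p = 0.0487), voom (0.26, limma adjusted p = 0.00583) and scaling to adipocyte markers (1.58, limma adjusted p = 6.05e-07). Ms4a4a, Ms4a7, Cd9, Mfge8, Bcl6 and S1pr2 no longer passed with TPM or voom. Over all named genes and alternatives 1250 values kept direction and side of the threshold, 34 no longer passed and 3 newly passed, and the cause was not tested. With the replicate block 6220 genes were higher and 5506 lower, and 9 of 9 receptor genes passed, while S1pr2 and Mki67 did not (limma adjusted p = 0.0700 and 0.0522). Pairing by replicate number did not show, as deviations from the group means correlated at 0.0030 to 0.031 between libraries of the same number. Libraries of different numbers were not set beside these, so pairing is not excluded. Low WT reads limit how well the size of each rise is known.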

Other observations

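Immunoglobulin M heavy chain mRNA was present in WT iWAT although the chains that carry it to the B cell surface were nearly absent there. Ighm stood at 656, 684, 580 and 744 FPKM in KLF10AKO replicates 1 to 4 and at 213, 168, 257 and 126 FPKM in WT replicates 1 to 4, whereas Cd79a averaged 468 ± 79.7 FPKM in KLF10AKO and 0.813 ± 0.162 in WT and Ighd averaged 532 ± 77.8 FPKM in KLF10AKO and 1.69 ± 0.284 in WT (SD, n = 4 each). The log2 change of Ighm was 1.85 (limma adjusted p = 3.67e-05), that of Ighd 7.92. Ighm was picked out after its values were seen, and the difference between the changes was not tested.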
